A study of Mus musculus with 4 samples.

Results

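The genes described here, Apln, Aplnr, Esm1, Angpt1, Angpt2, Dll4, Flt1, Pgf, Nrp1 and Vegfc, take part in the sprouting of blood and lymphatic vessels. They were picked by gene symbol for this known role, with earlier results of these data in view, and make up 10 of the 23282 rows of the lung data. A filter on low values kept 15164 rows, and all 10 genes passed it. Lung RNA was sequenced in 4 libraries, with 1 library for each group of male CDF1 mice. No group has a replicate, so no difference between groups has a replicate check, no p-value is given and every error below covers the counting of reads alone.

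The normal control group, E(-)T(-), had neither exercise (E) nor tumor (T). The normal exercise group, E(+)T(-), ran on a treadmill at high intensity. The cancer control group, E(-)T(+), was injected in the tail vein with CT26, a colorectal carcinoma cell line of mouse, and did not run. The cancer exercise group, E(+)T(+), was given CT26 cells in the same way and ran. Each group held 10 mice, and whether its lung library came from 1 mouse or from several was not given in the sources used here. The study took muscle from a single representative mouse per group and describes the lung work as a similar analysis, with no number of mice stated for lung. The labels give postnatal day 28 as the age of every sample. The methods give 4 weeks as the age at purchase and place sacrifice at the end of the experiment. The mice were therefore older at sampling than the labels give. The tumor model is a single cell line placed in the blood, and bulk lung RNA holds the RNA of host cells and of CT26 cells together.

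New vessels form when an endothelial tip cell leaves an existing vessel and draws stalk cells behind it. VEGF ligands guide the tip cell through receptors of the VEGF family, Dll4 on the tip cell activates Notch in its neighbors and holds them back, and angiopoietins act on the receptor Tek to settle or loosen the vessel wall. Apln and Esm1 are products of tip cells, Aplnr is the apelin receptor of endothelial cells, Pgf and Vegfc are ligands of the VEGF family, and Flt1 and Nrp1 are receptors that bind members of it. The adult lung is rich in capillary endothelium, so several of these genes are also expressed there without any sprouting.

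In lung with tumor and no exercise, 8 of the 10 genes were lower than in the normal control by at least 2-fold and 1, Esm1, was higher, where 25.7% of the 15164 filtered rows were lower and 20.6% higher and the median log2 difference of 20 endothelial markers was -2.75. In lung with tumor and exercise the receptors Flt1, Nrp1 and Aplnr, the Notch ligand Dll4 and the stabilizing ligand Angpt1 were higher than in tumor lung without exercise, Apln and Esm1 were lower, and Pgf was at its highest level of the 4 libraries. Of all filtered rows 24.3% were higher and 17.7% lower in that comparison, and the endothelial median was 2.75, above which only Aplnr lay. Angpt1 was within 2-fold (0.74) when library totals alone set the scale. Apln and Vegfc were low in both tumor libraries. Without tumor, 1 of the 10 genes differed by 2-fold or more with exercise, Aplnr, which was lower, a share like that of all filtered rows (5.28% higher and 4.70% lower).

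The libraries held between 9354538 and 13368052 reads assigned to genes. The smallest level that a library could show, set at 3 reads, was between 0.212 and 0.292 CPM, the reads among 1000000 effective reads of the library, where the effective reads are the total after the authors' scaling. Levels below are in CPM, and their exact Poisson 95% intervals are drawn in the plot of levels. A difference is that of the deposited log2 values, log2(normalized read count + 1), so that the change of a weak gene is understated, and its bracketed interval is the exact 95% interval of the read ratio on the log2 scale. A gene was past the limit when it differed by 2-fold or more, a log2 difference of 1. The libraries were primed at the poly(A) tail, and reads therefore cluster at the 3′ ends of transcripts, which lets reads of different genes be set side by side with little effect of their length.

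The E(-)T(+) library stood apart from the others in its makeup. The 14 markers of alveolar epithelium, which check the tissue label, were detected in every library, with summed normalized counts of 256267 in the normal control, 303094 in the normal exercise, 37890 in the cancer control and 201044 in the cancer exercise. The 12 cell division genes summed to 577, 1025, 13603 and 4338 in the same order, with Bub1 at 0 reads in E(-)T(-). Hemoglobin genes took 14.3%, 14.2%, 1.43% and 31.4% of reads. The 11 neutrophil genes summed to 3945, 12204, 11364 and 208193, with Elane at 0 reads in both libraries without tumor. In E(+)T(-), 9 genes without a read in E(-)T(-) and with a normalized count of 500 or more in E(-)T(+) stood at a median of 1.47% of their E(-)T(+) level. Taking that share of every E(-)T(+) value out of E(+)T(-) left all 40 differences of the sprouting genes with the same sign and on the same side of the 2-fold limit.

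Endothelial cells are the main source of most of these genes, and 20 pan-endothelial markers were read beside them. The markers summed to 42395 normalized counts in the normal control, 44777 in the normal exercise, 5968 in the cancer control and 40663 in the cancer exercise, and only Sox18 was at 0 reads, in the cancer exercise. Their median log2 difference was 0.11 for exercise without tumor, -2.75 for tumor without exercise, 2.75 for exercise with tumor and -0.49 for tumor with exercise. In bulk tissue fewer endothelial cells, less RNA per endothelial cell and a larger share of RNA from other cells cannot be told apart. Tumor without exercise also gave low medians for alveolar epithelium (-2.49), mural (-1.99) and erythroid (-3.14) genes. Medians were positive there for fibroblast (0.52), neutrophil (1.69) and cell division (4.71) genes. The endothelial medians are therefore to be read beside the values of the sprouting genes.

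The genes lie on 7 chromosomes of the mouse genome (GRCm38, GENCODE M21). Apln is at chrX:48025146-48034853 on the minus strand and Aplnr at chr2:85136225-85139923 on the plus strand. Dll4 is at chr2:119325784-119335962 on the plus strand, Flt1 at chr5:147561604-147726011 on the minus strand, and Nrp1 at chr8:128358604-128503363 on the plus strand. Pgf is at chr12:85166635-85177790 on the minus strand and Vegfc at chr8:54077606-54187096 on the plus strand. Angpt1 is at chr15:42424723-42676977 and Angpt2 at chr8:18690263-18741562, both on the minus strand, and Esm1 is at chr13:113209659-113218098 on the plus strand. Esm1 overlaps the span of Gzmk on the opposite strand and shares 0 exonic bases with it, and Gzmk had 0 reads in all 4 libraries. Angpt2 overlaps the span of Mcph1 on the opposite strand, again with 0 exonic bases shared. Mcph1 had 49, 64, 242 and 51 reads in the normal control, the normal exercise, the cancer control and the cancer exercise library. Angpt1 shares 737 exonic bases with Gm17473 and Dll4 shares 214 with Gm14207, both on the opposite strand, and Nrp1 holds Mir1903 on its own strand. Whether the counting used strand was not given in the sources used here, so reads of these pairs may be shared.

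The sequences just upstream of 4 of the genes are shown because their levels parted in the tumor libraries: Esm1 was high where Dll4 and Flt1 were low, and Apln was low in both tumor libraries while Dll4 and Flt1 were several-fold higher in E(+)T(+) than in E(-)T(+). Each is the 250 bases before the gene's start, 5′ to 3′ on the gene's strand, from the RefSeq promoter table for GRCm38.p6. They are at chrX:48034854-48035103 for Apln (minus strand), chr13:113209409-113209658 for Esm1 (plus strand), chr2:119325534-119325783 for Dll4 (plus strand) and chr5:147726012-147726261 for Flt1 (minus strand). Capitals mark GC boxes (GGGCGG on either strand) and the TATA box (TATAAA on either strand).
Apln promoter: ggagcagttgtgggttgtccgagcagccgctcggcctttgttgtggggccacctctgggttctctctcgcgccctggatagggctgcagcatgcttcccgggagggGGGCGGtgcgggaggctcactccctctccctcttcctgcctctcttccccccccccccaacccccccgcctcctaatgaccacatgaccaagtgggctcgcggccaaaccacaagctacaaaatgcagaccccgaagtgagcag
Esm1 promoter: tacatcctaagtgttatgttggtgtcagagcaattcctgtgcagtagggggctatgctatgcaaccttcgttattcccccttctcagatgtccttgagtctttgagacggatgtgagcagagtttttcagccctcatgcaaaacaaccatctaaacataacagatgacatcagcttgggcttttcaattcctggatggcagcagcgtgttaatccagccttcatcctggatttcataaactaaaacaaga
Dll4 promoter: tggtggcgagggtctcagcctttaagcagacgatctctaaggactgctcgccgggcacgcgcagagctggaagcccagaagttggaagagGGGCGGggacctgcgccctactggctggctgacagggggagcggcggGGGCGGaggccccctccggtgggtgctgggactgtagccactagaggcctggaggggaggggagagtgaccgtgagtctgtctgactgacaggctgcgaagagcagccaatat
Flt1 promoter: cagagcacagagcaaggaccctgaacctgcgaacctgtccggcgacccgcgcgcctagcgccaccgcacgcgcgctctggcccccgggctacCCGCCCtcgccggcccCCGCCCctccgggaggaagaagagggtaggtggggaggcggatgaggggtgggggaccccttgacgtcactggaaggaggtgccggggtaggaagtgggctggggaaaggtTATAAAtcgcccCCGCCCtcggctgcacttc

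The Esm1 window differed from the others in base composition. It was 44.0% G and C, against 65.2% for Apln, 65.6% for Dll4 and 70.4% for Flt1, and it held no GC box and no TATA box. The median over 32851 promoters of the same length was 52.4%, and 41.1% of them were below 50%. Apln held 1 GC box, Dll4 held 2, and Flt1 held 3 together with 1 TATA box. A GC box was present in 32.7% of all promoters and a TATA box in 12.4%. The table also held windows for Nrp1, Vegfc and both starts of Pgf, so that 7 of the 10 genes were matched, while Aplnr, Angpt1 and Angpt2 had no entry. Matches to ACGTG, 1 form of the core of the hypoxia response element (in 16.6% of all promoters), were looked for on both strands. TGGGAA (an RBPJ core, 21.6%) and CGGAAG (an ETS core, 13.6%) were looked for in the same way. None was found in the windows of these 7 genes, which says only that these letters are not in these bases. The form of the hypoxia core that starts with G was not counted. That form is in the windows printed above for Esm1, Dll4 and Flt1, though not in that for Apln. The search therefore does not show that these windows lack the hypoxia core.

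The genes of the apelin pair were both lower with tumor, but with exercise in mice with tumor Apln was lower and Aplnr higher. Apln, the ligand, stood at 50.4 CPM in the normal control, 52.2 in the normal exercise, 13.3 in the cancer control and 5.06 in the cancer exercise. Both tumor libraries were low, and the one with exercise was the lowest. Apln was 3.77-fold lower with tumor in mice that did not run (log2 difference -1.91, interval -2.19 to -1.66) and 10.1-fold lower with tumor in mice that ran (-3.34, -3.80 to -2.96). Of all filtered rows, 0.62% were at least as far down in the latter comparison. Between the tumor libraries Apln was 2.60-fold lower with exercise (-1.38, -1.88 to -0.93), a comparison in which the endothelial median was 2.75. Without tumor the exercise difference was 0.05 (-0.10 to 0.21), and it was -0.03 with library totals alone as the scale and -0.04 with totals that left hemoglobin out.

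Aplnr, the receptor, was lowest in E(-)T(+) and intermediate in E(+)T(+). Its level was 24.2 CPM in the normal control, 10.0 in the normal exercise, 0.46 in the cancer control and 5.16 in the cancer exercise, from 342, 131, 5 and 53 reads. The value in E(-)T(+) rests on 5 reads, just above the floor of 3. The tumor difference without exercise was -5.48 (-7.36 to -4.49), which 0.264% of all rows reached, and relative to the endothelial median it was -2.73. With exercise the tumor difference was -0.94 (-1.45 to -0.49). Exercise without tumor went with a 2.40-fold lower level (-1.27, -1.57 to -0.98), which made Aplnr the 1 gene of the 10 past the limit there, and exercise with tumor with a higher level (3.27, 2.19 to 5.18). Within each library the reads of Apln over those of Aplnr were 2.08 in the normal control, 5.21 in the normal exercise, 29.2 in the cancer control (12.2 to 91.3) and 0.981 in the cancer exercise (0.656 to 1.47). Ligand reads thus outnumbered receptor reads in every library but E(+)T(+), where the interval includes equal numbers.

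The VEGF family ligands Pgf and Vegfc parted in E(+)T(+). Pgf, placental growth factor, a ligand of Flt1, stood at 3.47, 3.21, 2.92 and 13.3 CPM in the normal control, the normal exercise, the cancer control and the cancer exercise library. Only E(+)T(+) was high, and the intervals of the other 3 libraries overlapped. Pgf was 4.07-fold higher with tumor in mice that ran (2.03, 1.55 to 2.59) and 4.45-fold higher with exercise in mice with tumor (2.16, 1.63 to 2.79). In mice that did not run, the tumor difference was -0.24 (-0.94 to 0.42), while the endothelial median there was -2.75. No other gene of the 10 differed by 2-fold or more upward between E(+)T(+) and E(-)T(-), where Pgf differed by 1.92.

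Vegfc, the ligand of lymphatic growth, stood at 5.94, 5.12, 1.37 and 0.78 CPM in the same order, from 84, 67, 15 and 8 reads. Both tumor libraries were low, and their difference was -0.74 with an interval of -2.26 to 0.52. The tumor difference was -2.05 (-3.02 to -1.32) without exercise and -2.58 (-3.99 to -1.66) with exercise. As a read ratio within a library, Pgf over Vegfc was 0.583 in the normal control, 0.627 in the normal exercise, 2.13 in the cancer control and 17.1 in the cancer exercise (8.45 to 40.5). Reads of Pgf were fewer than those of Vegfc in both libraries without tumor and more in both with tumor, with all 4 intervals clear of equal numbers.

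The receptors Flt1 and Nrp1 had the most reads of the 10 genes in the libraries without tumor and had the sign of the endothelial median in both comparisons that use E(-)T(+). Flt1, the VEGF receptor that also acts as a decoy, stood at 182 CPM in the normal control, 223 in the normal exercise, 52.7 in the cancer control and 195 in the cancer exercise. Only E(-)T(+) was low. The difference was -1.78 (-1.92 to -1.65) for tumor without exercise and 1.88 (1.75 to 2.02) for exercise with tumor, and E(+)T(+) differed from E(-)T(-) by 0.10, or by -0.40 with library totals alone. Nrp1, a co-receptor for VEGF and semaphorins, stood at 664, 593, 69.4 and 310.0 CPM. It was 9.55-fold lower with tumor in mice that did not run (-3.26, -3.37 to -3.15) and 4.46-fold higher with exercise in mice with tumor (2.16, 2.04 to 2.27). In E(+)T(+) Nrp1 differed from the normal control by -1.10 on the log2 scale.

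Reads of Flt1 over those of Kdr and over those of Nrp1 were higher in the 3 other libraries than in the normal control. Kdr, the main signaling receptor for VEGF and one of the endothelial markers, had 6629, 4855, 393 and 1681 reads. Flt1 reads over Kdr reads were 0.388 in the normal control (0.370 to 0.406), 0.600 in the normal exercise (0.573 to 0.628), 1.47 in the cancer control (1.29 to 1.68) and 1.19 in the cancer exercise (1.11 to 1.27). Flt1 over Nrp1 was 0.274, 0.376, 0.760 and 0.628. Both ratios were lowest in the normal control and highest in E(-)T(+), with no overlap of the counting intervals of Flt1 over Kdr between any of the libraries. These are ratios within a library and do not depend on the scaling between libraries.

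Dll4, the Notch ligand of tip cells, stood at 46.5 CPM in the normal control, 30.0 in the normal exercise, 4.11 in the cancer control and 19.96 in the cancer exercise. The order of the libraries was the same as for Nrp1, and no neighbors in it overlapped in their counting intervals. Dll4 was 11.1-fold lower with tumor in mice that did not run (-3.47, -3.97 to -3.06) and 4.78-fold higher with exercise in mice with tumor (2.26, 1.81 to 2.78). Exercise without tumor gave -0.63 (-0.82 to -0.45). Relative to the endothelial median, the tumor difference without exercise was -0.72 and the exercise difference with tumor was -0.49, both within 2-fold. Jag1, another Notch ligand, had nearly as many reads as Dll4 outside the cancer control, where Dll4 over Jag1 was 0.464 (0.318 to 0.667) against 1.19, 1.16 and 1.07 in the normal control, normal exercise and cancer exercise.

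Angpt1, which activates Tek and stabilizes vessels, stood at 76.6, 93.4, 19.3 and 49.5 CPM in the normal control, the normal exercise, the cancer control and the cancer exercise library. E(-)T(+) was lowest and E(+)T(-) highest. Tumor without exercise gave -1.98 (-2.21 to -1.77) and exercise with tumor 1.35 (1.12 to 1.59), the latter 0.74 and so within 2-fold with library totals alone. Angpt1 comes mainly from mural and other mesenchymal cells. The 12 mural cell markers summed to 5155, 5753, 1138 and 4361 normalized counts with none at 0 reads, and had medians of -1.99 for tumor without exercise and 1.63 for exercise with tumor. Their part in the Angpt1 values was not tested.

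Angpt2, the angiopoietin that endothelial cells release and that loosens the vessel wall, stood at 18.7, 10.6, 6.30 and 7.40 CPM. The normal control was highest, and the intervals of both tumor libraries overlapped. Its exercise difference was -0.81 (-1.12 to -0.51) without tumor and 0.23 (-0.26 to 0.72) with tumor, where it was -0.37 with library totals alone. The tumor difference without exercise was -1.56 (-1.97 to -1.18). Angpt2 reads over Angpt1 reads were 0.244 in the normal control (0.212 to 0.279), 0.114 in the normal exercise (0.0948 to 0.136), 0.325 in the cancer control (0.244 to 0.429) and 0.150 in the cancer exercise (0.116 to 0.191). The ratio was lower in each exercise library than in the library of the same tumor status without exercise, and these intervals did not overlap.

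Esm1, endocan, a proteoglycan secreted by tip cells, was the 1 gene of the 10 with its highest level in E(-)T(+). Its level was 14.3 CPM in the normal control, 13.8 in the normal exercise, 134 in the cancer control and 21.9 in the cancer exercise, from 202, 180, 1474 and 225 reads. Esm1 was 9.36-fold higher with tumor in mice that did not run (3.23, 3.02 to 3.45), which 3.75% of all rows reached, and 5.98 above the endothelial median on the log2 scale. With exercise the tumor difference was 0.67 (0.38 to 0.96), and it was 0.26 with library totals alone and 0.89 with the 1.47% share of E(-)T(+) taken out of E(+)T(-). Between the tumor libraries Esm1 was 6.12-fold lower with exercise (-2.61, -2.83 to -2.41). Without tumor the exercise difference was -0.05 (-0.35 to 0.24).

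Esm1 stood opposite to Apln and Dll4 in E(-)T(+). Reads of Esm1 over those of Apln were 0.284, 0.264, 10.1 and 4.33 in the normal control, the normal exercise, the cancer control and the cancer exercise library, and Esm1 over Dll4 was 0.307, 0.459, 32.8 and 1.10. Cell division genes moved with Esm1 in the comparisons that use the E(-)T(+) library. All 12 were higher by at least 2-fold with tumor in mice that did not run (median 4.71), against 20.6% of all rows. With exercise in mice with tumor 11 of 12 were lower (median -1.98), against 17.7% of all rows. Without that library the match was not seen at the 2-fold limit. With tumor in mice that ran, 10 of 12 were higher, while Esm1 was within 2-fold (0.67). With exercise in mice without tumor 4 of 12 were higher (median 0.78), while Esm1 was at -0.05. That count became 1 of 12 with the 1.47% share of E(-)T(+) taken out of E(+)T(-). Whether the Esm1 reads came from lung vessels or from CT26 cells was not tested, and in these bulk libraries their sources cannot be told apart.

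**Figure D1:**
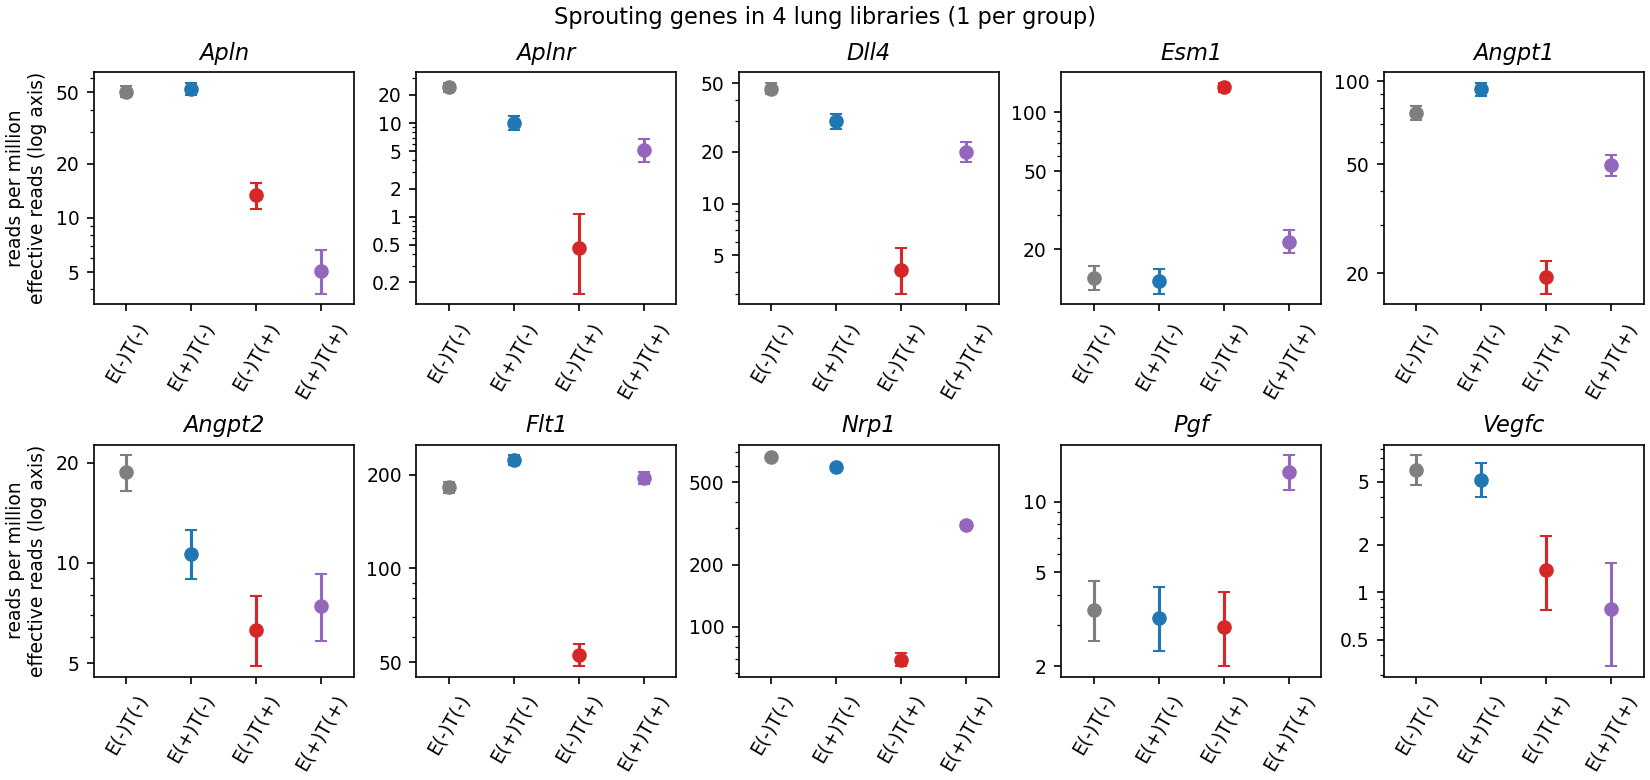
Level of each sprouting gene in the 4 lung libraries, in CPM on a log axis whose range differs by panel. Points are single libraries and bars are exact Poisson 95% intervals for counting error alone. Esm1 reached 134 in E(-)T(+) against 13.8 to 21.9 elsewhere, Pgf reached 13.3 in E(+)T(+), and Apln and Vegfc were low in both tumor libraries.

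Exercise without tumor, E(+)T(-) over E(-)T(-), was the quietest comparison. Of the 10 genes, 0 were higher and 1, Aplnr, was lower by 2-fold or more, against 5.28% of the 15164 filtered rows higher and 4.70% lower. The counting interval of 6 of the 10 excluded 0, as it did for 43.9% of all rows, and the 10 values ran from -1.27 to 0.29 with a median of -0.13, beside a median of 0.00 over all rows. Flt1 (0.29, 0.22 to 0.37) and Angpt1 (0.28, 0.17 to 0.40) were on the higher side. Aplnr, Angpt2, Dll4 and Nrp1 (-0.16, -0.21 to -0.12) were on the lower side. Relative to the endothelial median, Aplnr alone was past 2-fold, downward, against 4.35% of all rows higher and 5.99% lower.

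Tumor without exercise, E(-)T(+) over E(-)T(-), was the widest. Here 1 gene was higher and 8 were lower by 2-fold or more, against 20.6% of all rows higher and 25.7% lower. The 10 values had a median of -1.95, from -5.48 to 3.23, beside -0.03 over all rows and -2.75 over the endothelial markers. The counting interval of 9 of the 10 excluded 0, against 76.1% of all rows. Relative to the endothelial median, Esm1 (5.98), Pgf (2.51) and Angpt2 (1.19) were higher by more than 2-fold and Aplnr (-2.73) was lower, against 84.7% of all rows higher and 2.47% lower.

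Exercise with tumor, E(+)T(+) over E(-)T(+), went the other way for most genes. It shares the E(-)T(+) library with the preceding comparison, so opposite signs are partly built in. The count was 6 genes higher (Aplnr, Dll4, Angpt1, Flt1, Nrp1 and Pgf) and 2 lower (Apln and Esm1) by 2-fold or more, against 24.3% of all rows higher and 17.7% lower. With library totals alone the balance over all rows turned to 16.4% higher and 35.4% lower, Angpt1 (0.74) was no longer past the limit and Vegfc (-1.31) was, so that 5 genes were higher and 3 lower. The endothelial median was then 2.14. With the deposited scaling the median was 1.62, beside 0.01 over all rows and 2.75 over the endothelial markers, and only Aplnr stood above the endothelial median. For 8 of the 10 the counting interval excluded 0, against 71.9% of all rows. Relative to the endothelial median 0 genes were higher and 5 were lower by more than 2-fold, namely Esm1 (-5.36), Apln (-4.13), Vegfc (-3.49), Angpt2 (-2.52) and Angpt1 (-1.40), against 1.47% of all rows higher and 86.0% lower.

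Tumor with exercise, E(+)T(+) over E(+)T(-), left most of the genes within 2-fold. Pgf was higher and Apln and Vegfc were lower past the limit, against 14.9% of all rows higher and 13.0% lower. All 10 counting intervals excluded 0, against 64.4% of all rows, and the median was -0.75, beside 0.00 over all rows and -0.49 over the endothelial markers. Relative to the endothelial median Pgf (2.52) and Esm1 (1.16) were higher and Apln (-2.85) and Vegfc (-2.09) lower by more than 2-fold, against 26.7% of all rows higher and 6.17% lower. Counts in this comparison depend on the scaling: with library totals alone Aplnr (-1.35), Angpt1 (-1.33) and Nrp1 (-1.35) also passed the limit downward, so that 5 genes were lower in place of 2, against 24.2% of all rows lower at that scaling.

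**Figure D2:**
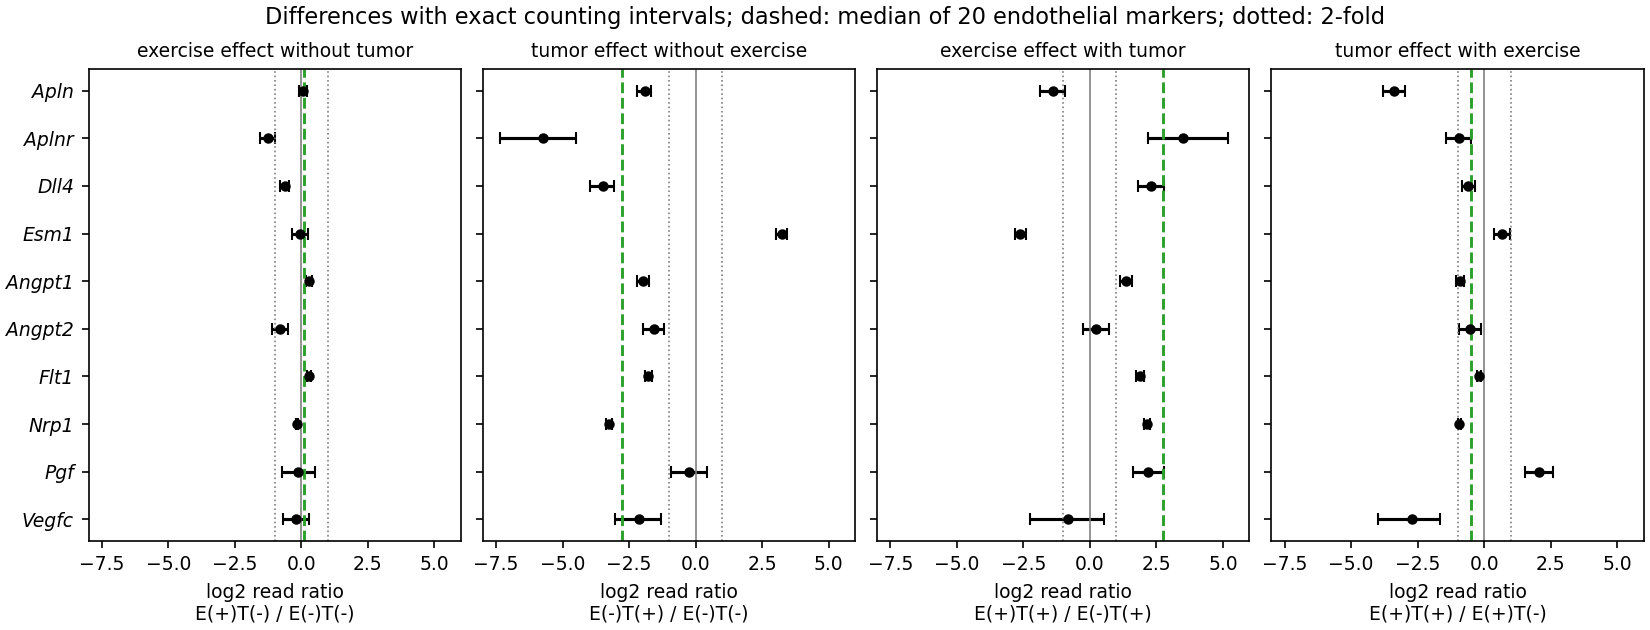
Log2 read ratio of each sprouting gene in the 4 comparisons, with exact 95% counting intervals as bars. The solid line marks no difference, dotted lines mark 2-fold, and the green dashed line is the median log2 difference of 20 endothelial markers (0.11, -2.75, 2.75 and -0.49 from left to right). Esm1 lies far to the right of that line for tumor without exercise and far to the left of it for exercise with tumor.

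The exercise difference with tumor was then set against that without tumor. The former minus the latter was 1 or more on the log2 scale in 7 of the 10 genes and -1 or less in 2, against 26.0% and 18.9% of all rows, and 17 of the 20 endothelial markers were at 1 or more with a median of 2.63. It was 4.53 for Aplnr (counting SE 0.69), 2.89 for Dll4 (0.25), 2.32 for Nrp1 (0.06), 2.26 for Pgf (0.42) and 1.59 for Flt1 (0.08). For Angpt1 it was 1.07 (0.13) and for Angpt2 1.04 (0.28), which became 0.54 and 0.52 with library totals alone. It was of the opposite sign for Esm1 and Apln, -2.56 for Esm1 (0.18) and -1.43 for Apln (0.25), and for Vegfc it was -0.53 (0.67), less than its counting SE, and -1.01 with library totals alone. For Aplnr, Dll4 and Nrp1 the exercise differences had opposite signs with both counting intervals clear of 0, which held for 17.0% of all rows. With 1 library in each group these differences have no test between groups.

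Set against the normal control without use of the E(-)T(+) library, E(+)T(+) had 1 of the 10 genes higher and 6 lower by 2-fold or more, against 14.8% of all rows higher and 14.4% lower and an endothelial median of -0.48. Flt1 (0.10), Esm1 (0.61) and Angpt1 (-0.63) were within 2-fold of their normal level. Apln (-3.29), Vegfc (-2.79), Aplnr (-2.21), Angpt2 (-1.33), Dll4 (-1.22) and Nrp1 (-1.10) were lower by more than 2-fold, and Pgf was higher (1.92). With library totals alone Angpt1 (-1.13) passed the limit too, so that 7 genes were lower in place of 6, against 28.6% of all rows lower at that scaling and an endothelial median of -0.98. Flt1 then turned to -0.40, and Esm1 was at 0.12. Flt1 was at -0.08 with totals that left hemoglobin out. In E(+)T(+) the summed erythroid and neutrophil levels were the highest of the 4 libraries, with all 11 erythroid and all 11 neutrophil genes higher by at least 2-fold than in E(+)T(-) and medians of 1.74 and 4.24, against 14.9% of all rows higher in that comparison. Ltf was the 1 neutrophil gene with more reads in E(-)T(+), 1560 against 554. The part of these genes in the Pgf value was not tested.

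**Figure D3:**
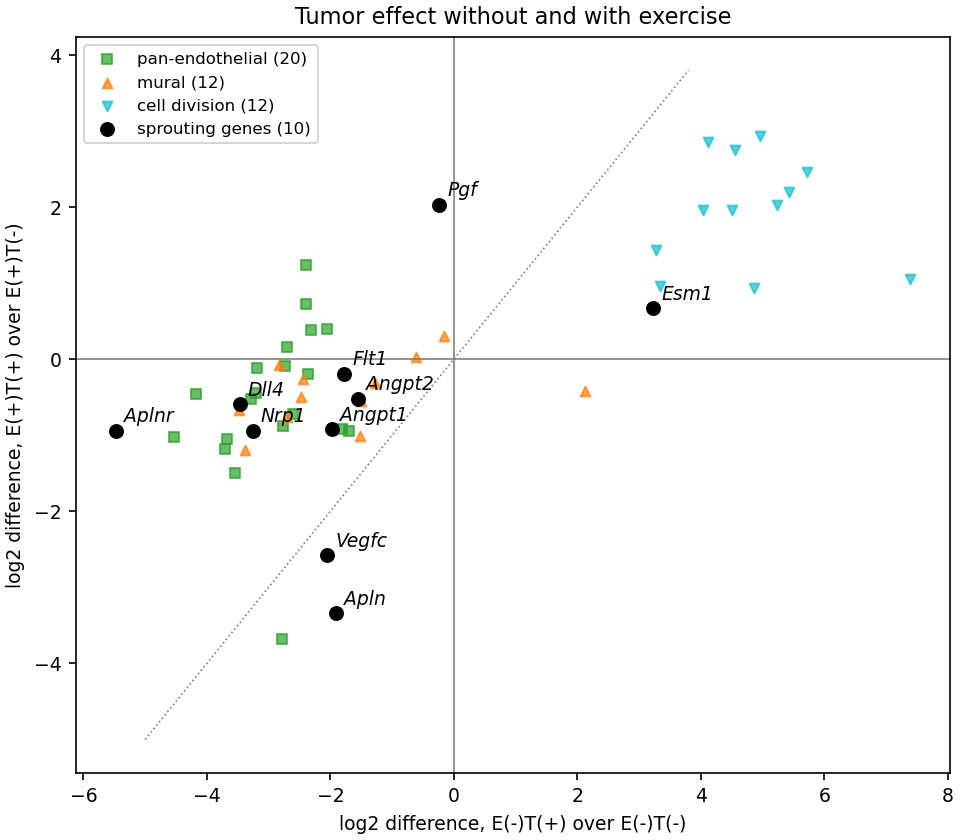
Tumor difference without exercise (x axis) and with exercise (y axis), both as log2 differences, for the sprouting genes (black, named) and for pan-endothelial, mural and cell division genes. The dotted diagonal marks equal differences. Angpt1, Angpt2, Dll4, Flt1 and Nrp1 lie among the endothelial and mural markers and Aplnr lies to their left, at -5.48. Apln and Vegfc lie below the diagonal at the bottom, as does the endothelial marker Sox18, at -2.79 and -3.68. Pgf lies at 2.03 on the y axis, and Esm1 lies to the right, at 3.23 and 0.67.

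Other genes of the same pathways were described from lists. Their counts past 2-fold stand against the shares of all rows given above for the same comparison, and the endothelial medians there were 0.11, -2.75, 2.75 and -0.49. Of 7 genes, namely 6 other VEGF ligands and receptors and the PDGF ligand Pdgfb, 4 were lower and 0 higher past 2-fold with tumor in mice that did not run (median -2.24). The lower ones included Kdr (-3.71), Pdgfb (-3.23), which recruits pericytes, and the main ligand Vegfa (-2.43). With exercise in mice with tumor, 3 were higher and 2 lower (median 0.14, or -0.47 with library totals alone), with Flt4, the receptor of Vegfc, at 2.42, Kdr at 2.19 and Vegfb at -1.74. Pdgfb stayed low in both tumor libraries, like Apln and Vegfc, with 530, 297, 43 and 21 reads and a tumor difference with exercise of -3.41. In that comparison 0 of the 7 were higher and 2 lower (median -0.59), Kdr being the other one at -1.18 and Vegfa standing at -0.67. Without tumor none passed 2-fold with exercise (median -0.28), and Pdgfb at -0.72, Flt4 at -0.36 and Kdr at -0.34 were farthest from 0.

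Most Notch pathway genes were low in E(-)T(+), as the endothelial markers were. With tumor in mice that did not run, 9 of 11 were lower and 1 was higher past 2-fold (median -2.13), against 25.7% of all rows lower, 20.6% higher and an endothelial median of -2.75. The Notch target Hey1 was at -3.50, the endothelial receptor Notch4 at -2.77 and the target Hes1 at -2.71, and the higher one was Rbpj, the DNA-binding partner of Notch, at 2.57. With exercise in mice with tumor 8 were higher and 1, again Rbpj, was lower (median 1.78), with Hey1 at 3.50, Notch4 at 2.46 and Rbpj at -2.11. In exercise without tumor 0 of 11 passed 2-fold and 7 were on the lower side (median -0.15), with Jag1 at -0.59, Nrarp at 0.42 and Hes1 at -0.38. In tumor with exercise 1 was lower and 0 higher past 2-fold and 7 were on the lower side (median -0.23), with Hes1 at -1.11, Rbpj at 0.61 and Notch1 at -0.54.

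The angiopoietin receptors stood on the side of the endothelial markers, among which both are also counted. Tek was at -4.18 and Tie1 at -3.67 with tumor in mice that did not run, and at 3.42 and 2.97 with exercise in mice with tumor. Of the 5 genes of this list that passed the filter, 3 were lower and 1, Angptl2, was higher (2.48) in the former comparison (median -1.58), and 3 were higher and 1 lower, again Angptl2 (-2.14), in the latter (median 1.51). In exercise without tumor 0 of 5 passed 2-fold (median -0.06), with Svep1 at -0.52, Tie1 at 0.35 and Tek at -0.31. In tumor with exercise 2 were lower and 0 higher (median -0.46), with Angptl4 at -1.19, Tie1 at -1.05 and Tek at -0.46. Angpt4 had 0 reads in every library.

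Tip cell and guidance genes were mixed. With tumor in mice that did not run, 6 of 19 were higher and 7 lower past 2-fold (median 0.07, or -0.02 with totals that left hemoglobin out). Ramp3, an accessory protein of adrenomedullin receptors, was at 3.99 and thus on the side of Esm1, while the guidance ligand Sema3e was at -3.28 and the chemokine Cxcl12 at -2.52. With exercise in mice with tumor 10 were higher and 4 lower (median 1.21), with the integrin subunit Itgb3 at 3.22, Cyr61 at -2.74 and the ephrin Efnb2 at 2.57. In E(+)T(+) against E(+)T(-) 5 were higher and 1 lower (median 0.10, or -0.30 with library totals alone), and the genes farthest from 0 were Itgb3 (3.03), the protease Adamts1 (2.12) and Ramp3 (1.84), all on the side of Pgf. In exercise without tumor 1 was higher, Ramp3 at 1.50, and 0 lower (median 0.15), with Itgb3 at 0.93 and Adamts1 at 0.72. Megakaryocytes and platelets also express Itgb3, and its source was not tested.

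**Figure D4:**
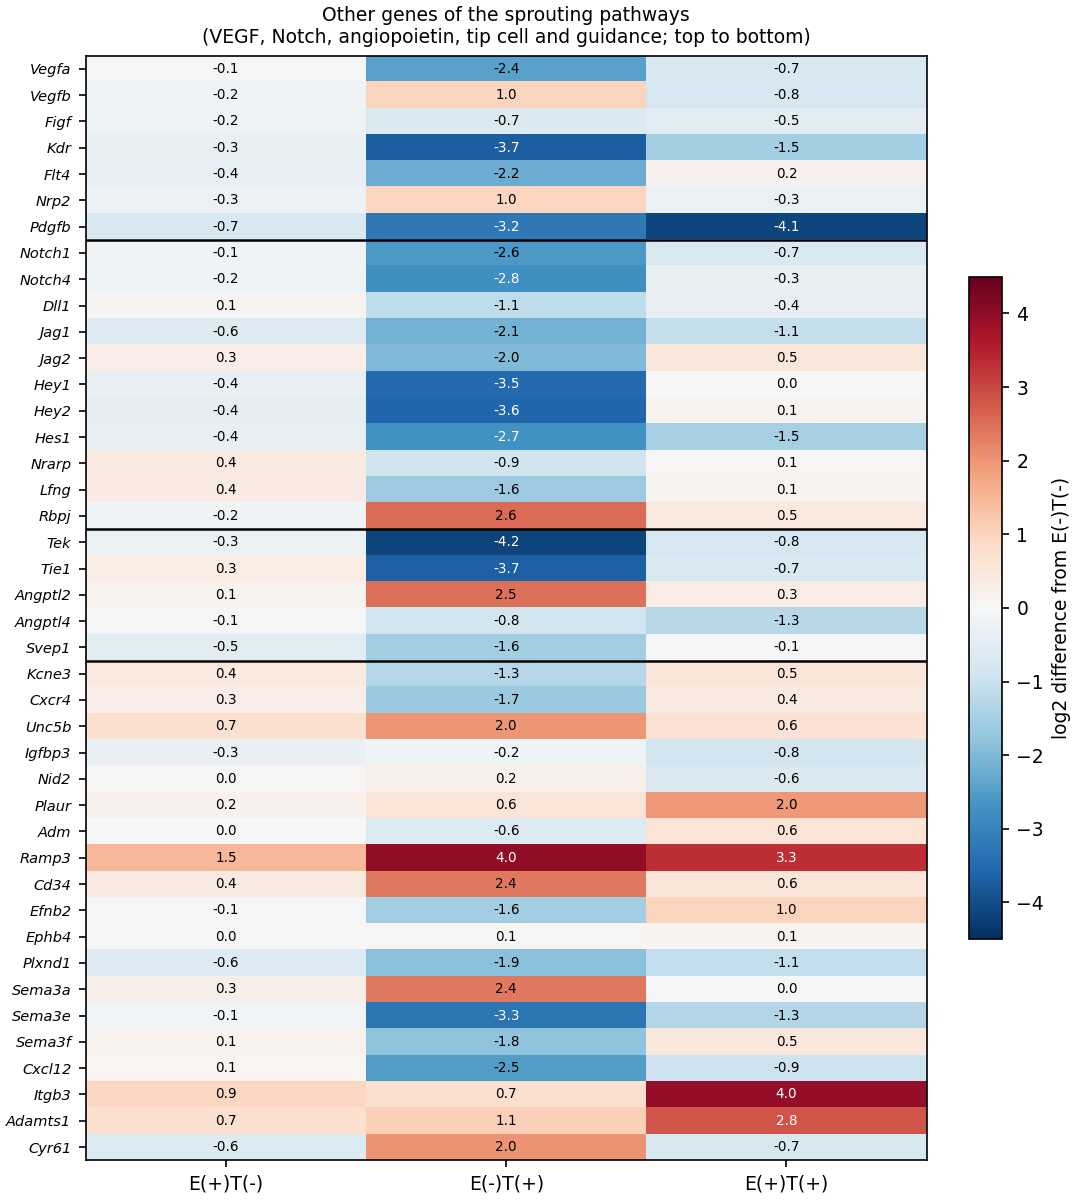
Log2 difference from E(-)T(-) of the other pathway genes in E(+)T(-), E(-)T(+) and E(+)T(+) (columns), with each value printed in its cell. Rows are grouped, top to bottom, into VEGF (with Pdgfb), Notch, angiopoietin, and tip cell and guidance genes. Kdr, Flt4, most Notch genes, Tek and Tie1 are blue (lower) in E(-)T(+) and paler in E(+)T(+), while Ramp3 is red (higher) in both tumor libraries and Pdgfb blue in both.

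Among the endothelial markers themselves, 20 of 20 were lower past 2-fold with tumor in mice that did not run, against 25.7% of all rows. Icam2 (-4.54) was farthest down. With exercise in mice with tumor 18 were higher and 1, Sox18, was lower, with Icam2 at 3.78, Tek at 3.42 and Vwf at 3.32. With tumor in mice that ran, 1 was higher (Vwf, 1.24) and 5 were lower, Emcn (-1.50) among them, against 14.9% and 13.0% of all rows. Without tumor 0 passed 2-fold with exercise, against 5.28% of all rows higher and 4.70% lower. Erg was at 0.88, Clec14a at -0.74 and Eng at 0.44. The 6 lung capillary markers gave medians of -0.27, -3.14, 2.46 and -0.27 for exercise without tumor, tumor without exercise, exercise with tumor and tumor with exercise, and all 6 passed 2-fold downward in the second and upward in the third.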

How the data were processed

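The authors prepared lung libraries with a QuantSeq 3′ mRNA kit, aligned the reads with Bowtie2 (build mm10 per the submitters' processing notes), counted them per gene with bedtools and applied the quantile normalization of edgeR. Software versions, the gene annotation and any use of strand are not given in the sources used here. The deposited values are log2(normalized read count + 1) at 3 decimals, 1 file per group, made by the authors. Whole reads were recovered by inverting the quantile adjustment with a fitted dispersion of 0.372. Put back through the adjustment, the reads matched 100% of the values to 0.001 (largest error 0.00051), and the count was fixed to 1 read for 94.6% of them. The recovery and the comparisons were also run on simulated reads. Those held counting error alone and far fewer changed genes than the E(-)T(+) library did. They therefore cannot say how changes as wide as those in E(-)T(+) act on the scaling.

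Differences were taken between deposited log2 values. The limit of 2-fold and a normalized count of 4 are those of the study, which does not say how the count was applied. Here rows entered with 4 or more on average across the libraries, so the rows past the limit need not be those of the study. Ratio intervals are exact (Clopper-Pearson, 95%), levels carry exact Poisson intervals, and both, with the floor of 3 reads, leave out all but counting error, as reads copied by PCR carry no molecular identifier and are not independent. A count test was not run because each group has 1 library. All 10 genes are named, with up to 3 genes per pathway or endothelial list and comparison, those with a mean of at least 50 normalized counts and the largest difference. Other lists are given by counts and medians, with genes picked as examples after their values were seen. The genes and lists were chosen with earlier results of these data known. Kdr, Tek and Tie1 are in 2 lists, as are Vegfa and Adm. Vegfd was matched as Figf and Ccn1 as Cyr61, and Ahsp and Ly6g had no row. Alternatives were another pseudocount, other scalings, no quantile adjustment and no filter. Python 3.11.15, NumPy 2.4.6, SciPy 1.17.1 and matplotlib 3.10.9 were used.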

Additional observations from a re-analysis of the deposited data

Results flagged for a closer look

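The exercise difference had opposite signs without and with tumor in 3 of the 10 sprouting genes, with counting intervals that exclude 0 in both cases, and 17.0% of the 15164 filtered rows met the same rule. Aplnr stood at -1.27 without tumor and 3.27 with tumor, Dll4 at -0.63 and 2.26, and Nrp1 at -0.16 and 2.16. In each of these genes the difference with tumor rests on a low value in the E(-)T(+) library, where the endothelial markers were low as well. With 1 library per group the difference between the exercise effects was not tested.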

How the results depend on the processing

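All 40 differences of the sprouting genes kept their sign and their side of the 2-fold limit with a pseudocount of 4, with median-of-ratios scaling, without the quantile adjustment and with the E(-)T(+) share taken out of E(+)T(-), an alternative chosen after seeing the data. With library totals alone 38 kept their sign and 35 their side, and the median over all rows shifted to -0.59 for exercise with tumor and -0.41 for tumor with exercise. Vegfc then passed the limit in exercise with tumor (-1.31) and Angpt1 did not (0.74), and 5 sprouting genes in place of 2 were lower in tumor with exercise. Library totals without hemoglobin also gave 5 there, with Aplnr at -1.03, Nrp1 at -1.02 and Angpt1 just past the limit, against 15.1% of all rows lower at that scaling. The counts over all rows moved by more than 1.5 times in these cases: for exercise without tumor, 800 higher became 528 with a pseudocount of 4 and 1315 without the filter, and 713 lower became 1291 without the filter. With library totals alone, 2686 lower became 5370 for exercise with tumor, and for tumor with exercise 2259 higher became 1440 and 1964 lower became 3663. For E(+)T(+) over E(-)T(-), whose alternatives were also chosen after seeing the data, 2244 higher became 1391 and 2178 lower became 4340 with library totals alone. In exercise with tumor and in tumor with exercise, higher rows then made up 31.6% of those past the limit in place of 57.8%, and 28.2% in place of 53.5%. The median of the hypoxia list turned to -0.08 for tumor with exercise and that of the fibroblast list to -0.59 for exercise with tumor. The cause of these changes was not tested. Leaving out a replicate was not possible with 1 library per group. No paired analysis was possible because each group has 1 library and no replicate number. Depth limits Aplnr in E(-)T(+) (5 reads) and Vegfc in both tumor libraries (15 and 8 reads).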

Other observations

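The counts of genes past 2-fold in the lists that follow stand against 5.28% of all rows higher and 4.70% lower for exercise without tumor, 20.6% and 25.7% for tumor without exercise, 24.3% and 17.7% for exercise with tumor, and 14.9% and 13.0% for tumor with exercise. A hypoxia response list that includes Vegfa was described as a group. With tumor in mice that did not run, 10 of 16 were higher and 1, Vegfa itself (-2.43), was lower by 2-fold or more (median 1.38). P4ha1 (-0.87), Pfkfb3 (-0.68) and Adm (-0.61) were on the lower side within 2-fold. Car9, a carbonic anhydrase of hypoxic tumor cells, was at 3.98, Ndrg1 at 2.64, the glucose transporter Slc2a1 at 2.50 and the glycolytic enzyme Ldha at 2.37. With exercise in mice with tumor 2 were higher and 7 lower (median -0.79), with Car9 at -4.62. Tumor with exercise gave 3 higher, 2 lower and 11 within 2-fold (median 0.33), or 4 higher and 1 lower with the 1.47% share of E(-)T(+) taken out of E(+)T(-), and exercise without tumor 0 of 16 in either direction (median 0.13). Whether these reads came from lung or from CT26 cells was not tested.

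Fibroblast genes were split. With tumor in mice that did not run, 5 of 12 were higher and 4 lower by 2-fold or more (median 0.52): collagens such as Col1a2 (2.78) and Col3a1 (2.33) were higher, and Tcf21 (-4.77) and Mfap4 (-4.62), genes of resident lung fibroblasts, were lower. Exercise with tumor gave 4 higher and 3 lower of 12 (median 0.02), with Tcf21 at 3.47 and Col1a2 at -2.39. Tumor with exercise gave 2 higher and 3 lower (median 0.42), and exercise without tumor 0 of 12 (median -0.05). The summed fibroblast level was 16554, 16561, 40835 and 20928 normalized counts in the normal control, the normal exercise, the cancer control and the cancer exercise library, with no gene at 0 reads.

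Of the 14 alveolar genes, 13 were lower past 2-fold with tumor in mice that did not run (median -2.49), 13 were higher with exercise in mice with tumor (2.34), 3 were lower with tumor in mice that ran (-0.45) and 0 passed the limit with exercise alone (0.07). Mural markers gave 1 higher and 9 lower for tumor without exercise, 7 higher for exercise with tumor, 2 lower for tumor with exercise (median -0.46) and 1 higher for exercise without tumor (0.12). Cell division genes gave 4 of 12 higher with exercise in mice without tumor (median 0.78) and 10 of 12 higher with tumor in mice that ran. With the 1.47% share of E(-)T(+) taken out of E(+)T(-) these became 1 of 12 (median 0.42) and 12 of 12. Erythroid genes gave 10 of 11 lower with tumor in mice that did not run (median -3.14), 11 of 11 higher with exercise in mice with tumor (5.12), and 1 higher and 1 lower with exercise in mice without tumor (0.06). Neutrophil genes were higher in 8 of 11 with exercise in mice without tumor (median 1.61), in 9 of 11 with tumor in mice that did not run (1.69), and in 10 of 11, with 1 lower, with exercise in mice with tumor (4.18).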
